A study of Mus musculus with 6 samples.

Results

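The interferon receptor, JAK, STAT and IRF genes are described here in B16F10 cells, a mouse melanoma line, after depletion of OSGEP. They were chosen by name from the type I interferon pathway: Ifnar1, Ifnar2, Jak1, Tyk2, Stat2, Irf1, Irf3, Irf7 and Irf9, which are 9 of the 55487 genes in the count table. The rule is a list of names and sets no threshold on a measured value, but it was written with earlier results of these data known. All 9 passed the filter on low counts that left 12669 genes to test. Cells carried either a scramble shRNA (shCtr, genotype WT in the labels) or the hairpin numbered 2 against OSGEP (shOSGEP, genotype KD OSGEP), delivered by lentivirus and followed by puromycin selection in both groups. OSGEP is an enzyme of the KEOPS complex, which writes the t6A modification on tRNAs. PolyA RNA of 3 infections per group was sequenced, which the labels call independent. A single hairpin was used, so an effect of the hairpin sequence itself cannot be told apart from the loss of OSGEP.

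Type I interferon binds a receptor made of IFNAR1 and IFNAR2, which carry the kinases TYK2 and JAK1. These kinases phosphorylate STAT proteins, and the complex ISGF3, which contains STAT2 and IRF9, then switches on interferon-stimulated genes, among them Stat2, Irf7 and Irf9 themselves. IRF3 and IRF7 act earlier, downstream of the sensors of foreign nucleic acid, and drive the interferon genes, while IRF1 is a further transcription factor that interferons induce.

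The promoters of Stat2, Irf1 and Ifnar2 are printed because, among the members, they are the ones to hold letters of the elements that the STAT complexes read. The core of the interferon-stimulated response element was searched as GAAA and GAAA with any 2 bases between them, on either strand, and the gamma-activated site as TTCNNNGAA, which reads the same on both strands. The window was the 250 bases before each RefSeq transcription start (GRCm38.p6), read in the direction of the gene, and capitals mark the match. The windows are chr10:128270248-128270497 on the plus strand for Stat2, chr11:53769764-53770013 on the plus strand for Irf1 and chr16:91372533-91372782 on the plus strand for Ifnar2.
Stat2: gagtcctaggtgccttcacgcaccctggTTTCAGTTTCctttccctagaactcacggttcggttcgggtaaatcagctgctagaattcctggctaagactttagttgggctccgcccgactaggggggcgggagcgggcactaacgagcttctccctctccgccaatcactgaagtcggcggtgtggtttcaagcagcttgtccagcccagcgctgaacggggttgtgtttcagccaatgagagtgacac
Irf1: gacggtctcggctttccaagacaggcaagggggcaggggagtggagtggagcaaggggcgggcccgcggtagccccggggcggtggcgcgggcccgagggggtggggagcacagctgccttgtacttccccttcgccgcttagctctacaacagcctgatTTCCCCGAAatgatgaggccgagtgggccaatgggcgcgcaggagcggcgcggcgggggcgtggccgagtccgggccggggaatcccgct
Ifnar2: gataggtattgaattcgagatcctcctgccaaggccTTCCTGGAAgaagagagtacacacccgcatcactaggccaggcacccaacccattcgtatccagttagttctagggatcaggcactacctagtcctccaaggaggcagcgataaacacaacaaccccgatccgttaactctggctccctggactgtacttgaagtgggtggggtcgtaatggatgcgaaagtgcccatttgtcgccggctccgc
The match in Stat2 lies 222 to 213 bases before the start and reads the core on the other strand. The matches to the gamma-activated site lie 90 to 82 bases before the start in Irf1 and 214 to 206 bases before it in Ifnar2. The core occurred in 2.98% of all 32851 windows and the gamma-activated site in 7.02%, so both are common strings. The 9 members had 11 windows, since Irf1 and Irf9 have more than 1 start. No other member window, those of Irf7 and Irf9 included, held either string, which says only that these letters are not in those windows.

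Depth ranged from 18915587 to 29487384 counts per library. The targeted gene was lower in every shOSGEP library than in every shCtr library: Osgep had 20.6, 58.6 and 21.8 CPM (counts relative to the TMM-scaled library total, in order of replicate number) in shCtr, against 4.28, 0.542 and 5.52 CPM in shOSGEP, a Log2FC of -3.29 (SE 0.876, unadjusted p = 0.00524, adjusted p = 1.00, edgeR). Both replicate 2 libraries stood apart: shCtr replicate 2 correlated with the other shCtr libraries at 0.776 and 0.857 in log2 CPM, against 0.966 between those, and shOSGEP replicate 2 with its group at 0.877 and 0.915, against 0.953. All 7 melanoma markers fixed for the check were present, with a summed level of 17038 to 29599 CPM in shCtr and 3551 to 18083 CPM in shOSGEP, the lowest being shOSGEP replicate 2. Of 9 leukocyte markers, 5 (Ptprc, Cd3e, Cd3d, Adgre1 and Itgam) were at 0 counts in all 6 libraries, and the summed level was 1.52 to 1.82 CPM in shCtr and 1.53 to 3.64 CPM in shOSGEP, highest in replicate 2. The summed levels of the endothelial and keratinocyte markers reached at most 0.310 and 0.0492 CPM, and the 3 fibroblast markers reached 4.11 CPM, nearly all from Pdgfra, in shOSGEP replicate 2. The part of any such cells in the results was not tested, and in bulk RNA fewer cells of a type and less RNA per cell cannot be told apart.

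Without a block for the replicate number, none of the 9 genes passed edgeR's test between shOSGEP and shCtr. The 3 with the highest Log2FC were Irf7, Irf9 and Stat2, and they were higher in shOSGEP in each of the 3 same-numbered pairs of libraries. Interferon induces these 3 but also Irf1, which had a Log2FC of 0.34 and was higher in 1 of the 3 pairs. The 2 receptor chains, the 2 kinases, Irf1 and Irf3 had Log2FC values between -0.29 and 0.34, with standard errors of 0.38 to 0.61. At the threshold of the study, an absolute Log2FC above 0.5 at an unadjusted p under 0.05, 0 of 9 were called higher and 0 of 9 lower by edgeR's quasi-likelihood test, against a background of 1.59% higher and 0.426% lower among the 12669 genes tested. At an unadjusted p under 0.05 alone, 0 of the 9 were called, against 256 of all genes (2.02%). At an adjusted p under 0.05, edgeR called 0 genes in the whole table, DESeq2 14 (0.111%) and limma-voom with sample quality weights 3 (0.0237%), none of them a member. At the study threshold, DESeq2 called 0 of the 8 members to which it gave a p higher (background 1.97%), giving none to Irf7, and limma-voom called 2, Irf7 and Irf9 (background 3.35%). Of the 9, 7 had a Log2FC above 0, where 47.3% of all genes did, and the median was 0.18 against -0.03 over all genes. Without shOSGEP replicate 2 these were 5 of 9 and 0.024, without shOSGEP replicate 1 the median was 0.048, and without shCtr replicate 2 it was 0.43. The 2 groups overlapped for every member, whereas they did not overlap in 3.49% of genes on the higher side and 2.87% on the lower side. Exact two-sided permutation tests of the mean log2 CPM gave p between 0.3 and 1.0 for the 9 genes, in a design of 3 against 3 libraries that cannot go below 0.1.

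**Figure D1:**
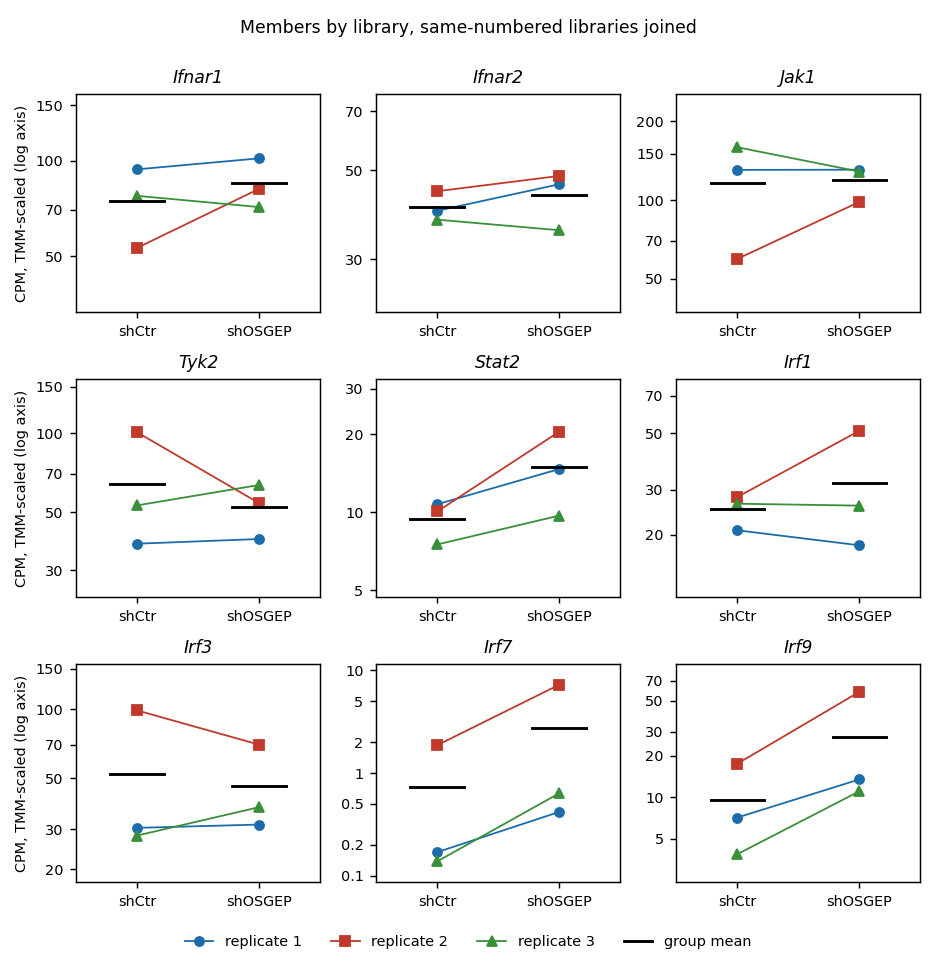
Level of each member in the 6 libraries, in CPM on a log axis with its own range in each panel. Points are libraries, lines join libraries of the same replicate number and black bars are group means (n = 3). The lines of Stat2, Irf7 and Irf9 all go up from shCtr to shOSGEP, while the groups overlap in every panel.

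The receptor chains were among the steadier members. Gene positions here and for the other members are those of GENCODE M21 on GRCm38. Ifnar1 (ENSMUSG00000022967, chromosome 16, 91485238 to 91507441, plus strand), the chain that binds TYK2, had 94.0, 53.1 and 77.5 CPM in shCtr, against 102, 81.6 and 71.4 CPM in shOSGEP. The lowest value was that of shCtr replicate 2 and the other 5 libraries lay within the range of 71.4 to 102 CPM. Its Log2FC was 0.18 (SE 0.40, unadjusted p = 0.663), and -0.017 without shCtr replicate 2. Ifnar2 (ENSMUSG00000022971, chromosome 16, 91372783 to 91405589, plus strand), the chain that binds JAK1, had the narrowest spread of the 9, at 39.6, 44.3 and 37.7 CPM in shCtr against 46.2, 48.4 and 35.5 CPM in shOSGEP. Both the highest and the lowest value were thus in shOSGEP. The Log2FC of Ifnar2 was 0.10 (SE 0.38, unadjusted p = 0.806), and its mean was 40.6 ± 3.43 CPM in shCtr and 43.3 ± 6.91 CPM in shOSGEP (SD, n = 3 each).

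The kinases varied more between replicates than between groups. Jak1 (ENSMUSG00000028530, chromosome 4, 101152367 to 101265282, minus strand), a kinase used by many cytokine receptors, had 130.3, 59.6 and 159 CPM in shCtr, against 130.5, 98.4 and 128 CPM in shOSGEP. In both groups replicate 2 was lowest. The Log2FC was 0.03 (SE 0.46, unadjusted p = 0.942), and -0.28 without shCtr replicate 2. Tyk2 (ENSMUSG00000032175, chromosome 9, 21104068 to 21131243, minus strand), which serves the interferon, IL-12 and IL-10 receptors, had 37.9, 100.6 and 53.0 CPM in shCtr, against 39.5, 54.0 and 63.4 CPM in shOSGEP. Here shCtr replicate 2 was the highest library and the other 5 overlapped. The Log2FC of -0.29 (SE 0.48, unadjusted p = 0.568) became 0.20 without that library, so its sign rested on 1 control.

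Stat2 (ENSMUSG00000040033, chromosome 10, 128270559 to 128292849, plus strand) encodes the STAT that is particular to the type I and type III interferon pathways. Its counts were 253, 205 and 163 in shCtr and 316, 529 and 229 in shOSGEP, or 10.7, 10.1 and 7.52 CPM and 14.7, 20.5 and 9.72 CPM. The lowest shOSGEP library, replicate 3, lay below the 2 highest shCtr libraries, so the groups overlapped, but within each replicate number shOSGEP was higher. The log2 ratios of same-numbered libraries were 0.45, 1.02 and 0.37. Its mean was 9.45 ± 1.71 CPM in shCtr and 14.97 ± 5.40 CPM in shOSGEP (SD, n = 3 each), and the Log2FC was 0.66 (SE 0.47, unadjusted p = 0.194).

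Irf1 and Irf3 showed no common direction. Irf1 (ENSMUSG00000018899, chromosome 11, 53770014 to 53778374, plus strand) had 20.8, 28.1 and 26.4 CPM in shCtr, against 18.1, 51.1 and 26.0 CPM in shOSGEP. Only shOSGEP replicate 2 lay above the shCtr range, and the Log2FC of 0.34 (SE 0.49, unadjusted p = 0.508) became -0.16 without it. Irf3 (ENSMUSG00000003184, chromosome 7, 44997648 to 45002848, plus strand), present in resting cells and activated by phosphorylation rather than by synthesis, had 30.4, 98.9 and 28.1 CPM in shCtr, against 31.4, 70.1 and 37.4 CPM in shOSGEP. Replicate 2 was the highest in both groups. The Log2FC of Irf3 was -0.18 (SE 0.61, unadjusted p = 0.775), and it was 0.66 without shCtr replicate 2 and 0.30 with offsets for GC content and transcript length. Irf3 had the highest GC content of the 9, at 56.9%, and the trend of GC content and length in shCtr replicate 2 came to 0.93 (log2) for a gene of its composition. It also shares 1065 bases with Bcl2l12 on the opposite strand, a gene with 80 to 214 counts per library against 610 to 2011 for Irf3, and the kit was not stated to keep strand.

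Irf9 and Irf7 had the highest Log2FC of the 9. Irf9 (ENSMUSG00000002325, chromosome 14, 55603571 to 55610030, plus strand), the DNA-binding subunit of ISGF3, had 168, 357 and 84 counts in shCtr and 290, 1503 and 261 in shOSGEP, or 7.14, 17.5 and 3.87 CPM and 13.5, 58.2 and 11.1 CPM. Replicate 2 was the highest library in each group, and shCtr replicate 2 lay above the other 2 shOSGEP libraries. The same-numbered log2 ratios were 0.91, 1.73 and 1.49. The mean was 9.52 ± 7.14 CPM in shCtr and 27.6 ± 26.6 CPM in shOSGEP (SD, n = 3 each), and the Log2FC was 1.54 (SE 0.82, unadjusted p = 0.0951). It was 0.40 without shOSGEP replicate 2 and 2.32 without shCtr replicate 2. Irf9 shares 123 bases on the same strand with Rnf31, which had 258 to 512 counts per library.

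Irf7 (ENSMUSG00000025498, chromosome 7, 141262706 to 141266481, minus strand), the factor that amplifies the interferon alpha genes, was near the limit of detection in most libraries. It had 4, 38 and 3 counts in shCtr and 9, 187 and 15 in shOSGEP, or 0.170, 1.87 and 0.138 CPM and 0.419, 7.25 and 0.636 CPM. Replicate 2 was again highest in both groups, with shCtr replicate 2 above shOSGEP replicates 1 and 3. The ratio of same-numbered libraries in CPM was 2.46 (95% exact binomial interval 0.687 to 10.9), 3.88 (2.72 to 5.65) and 4.60 (1.30 to 24.8), intervals that cover counting error only. On the log2 scale with a prior count of 2, which understates low genes, these ratios were 0.97, 1.91 and 1.68. The Log2FC of Irf7 was 1.94 (SE 1.34, unadjusted p = 0.186), and it was -0.40 without shOSGEP replicate 2 and 4.12 without shCtr replicate 2. Irf7 overlaps Phrf1 on the opposite strand by 45 bases, and Phrf1, with 1529 to 2719 counts, was far more abundant.

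**Figure D2:**
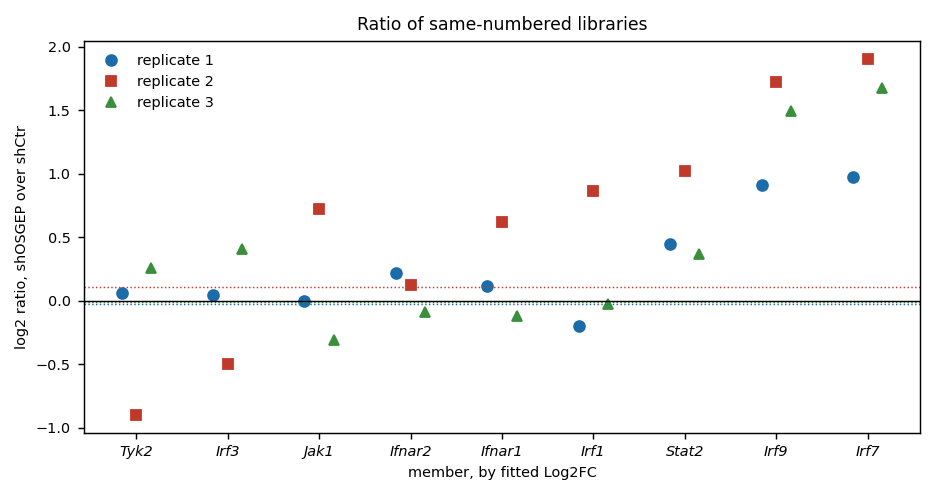
Log2 ratio of shOSGEP over shCtr within each replicate number for the 9 members, from log2 CPM with a prior count of 2. Dotted lines are the medians over all genes tested for each number, at -0.03, 0.11 and -0.01. Stat2, Irf9 and Irf7 lie above 0 for all 3 numbers, and replicate 2 holds both the lowest ratio (Tyk2, -0.90) and the highest (Irf7, 1.91).

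The same-numbered libraries carried much of the spread. Of the 9 members, 3 were higher in all 3 same-numbered pairs and 0 were lower in all of them, where 17.6% and 17.2% of all genes were. The median ratio of the members was 0.12, 0.72 and 0.26 in replicates 1, 2 and 3, against -0.03, 0.11 and -0.01 over all genes. With the replicate number as a block, Irf7 (Log2FC 1.82, unadjusted p = 0.00987) and Irf9 (1.39, unadjusted p = 0.00675) passed the study threshold, 2 of 9 members against 2.32% of all genes on that side, and the smallest adjusted p among the members was 0.741. Stat2 had a Log2FC of 0.62 in that fit (unadjusted p = 0.114). With offsets for GC content and length beside the block, Irf7, Irf9 and Stat2 passed it (Log2FC 2.27, 1.41 and 0.79, unadjusted p = 0.00443, 0.00219 and 0.0437), against 4.63% of all genes, at an adjusted p of 0.558 for each. No fit placed a member past the study threshold on the lower side.

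Because replicate 2 stood apart, the members were also compared without both of its libraries, with 2 libraries left per group. The Log2FC was then 1.74 for Irf7 (unadjusted p = 0.0656), 1.16 for Irf9 (unadjusted p = 0.0282) and 0.42 for Stat2 (unadjusted p = 0.291), and all 3 kept their sign. Irf9 was the member past the study threshold there, against 1.26% of all genes. Leaving out shOSGEP replicate 2 alone left 0 members past it (background 0.416%), with Irf9 at 0.40 and Stat2 at 0.38. Irf7 changed sign there, to -0.40.

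**Figure D3:**
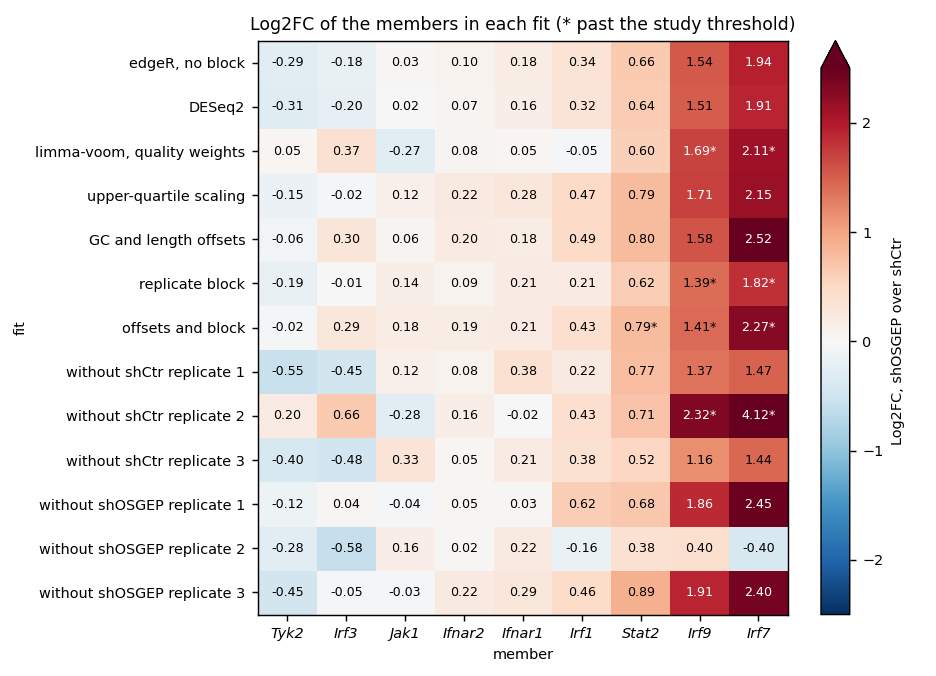
Log2FC of shOSGEP over shCtr for each member (columns) in 13 fits (rows), in colour and as a number, with a star where the Log2FC was beyond 0.5 and the unadjusted p under 0.05. The scale ends at 2.5, beyond which lie Irf7 at 4.12 without shCtr replicate 2 and at 2.52 with offsets. Stat2, Irf9 and Ifnar2 are above 0 in every fit shown and Irf7 in all but the fit without shOSGEP replicate 2. Tyk2, Irf3, Jak1, Ifnar1 and Irf1 change sign between fits.

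Levels were compared between genes per kilobase of median transcript length, as CPM per kb. Jak1 had the highest level in shCtr, at 185 ± 81.2 CPM per kb, followed by Irf3 (67.8 ± 51.9), Ifnar1 (53.7 ± 14.8), Ifnar2 (36.9 ± 3.12), Irf1 (30.3 ± 4.62), Tyk2 (14.1 ± 7.22), Stat2 (11.4 ± 2.06), Irf9 (4.06 ± 3.05) and Irf7 (0.892 ± 1.22, SD, n = 3 each). The ranges of neighbours in this order did not overlap between Ifnar2 and Irf1, between Irf1 and Tyk2 and between Stat2 and Irf9. The ranges of all other neighbours, from Jak1 and Irf3 to Irf9 and Irf7, overlapped. Irf9 was nevertheless above Irf7 in 6 of the 6 libraries, since replicate 2 was the high one for both, while Jak1 was above Irf3 in 5, Irf3 above Ifnar1 in 2, Ifnar1 above Ifnar2 in 5 and Tyk2 above Stat2 in 3. In shOSGEP Jak1 was also first, at 189 ± 28.5 CPM per kb, and Irf7 last, at 3.40 ± 4.77 CPM per kb (SD, n = 3), while Irf9 stood at 11.8 ± 11.3 CPM per kb, next to Tyk2 at 11.5 ± 2.66 CPM per kb. The order depended on the length used: with the longest transcript of each gene, 6 of the 9 ranks in shCtr moved and Irf3 came first.

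Within the pathway around them, the genes that ISGF3 acts on had the highest values. Of 12 such targets listed, 11 were tested, 10 had a Log2FC above 0 and 4 passed the study threshold on the higher side (1.59% of all genes did), with a median Log2FC of 1.79 against -0.03 over all genes. The list was chosen with earlier results of these data known. Ifit1, which binds foreign RNA caps, had 9.01, 2.95 and 7.06 CPM in shCtr, against 18.1, 39.4 and 12.4 CPM in shOSGEP (Log2FC 1.88, unadjusted p = 0.0175). Ifit3, its partner, had 11.3, 10.0 and 10.2 CPM in shCtr, against 20.4, 35.96 and 16.3 CPM in shOSGEP (Log2FC 1.20, unadjusted p = 0.0313). The groups of both genes did not overlap. Oasl2, of the oligoadenylate synthetase family (Log2FC 2.93, unadjusted p = 0.0242), and Rtp4, a receptor transporter protein (Log2FC 2.12, unadjusted p = 0.0439) were the other 2. Their groups did not overlap either. These were the 4 of the 11 tested targets whose groups did not overlap, against 3.49% of all genes on the higher side. In all 3 same-numbered pairs 10 of the 11 were higher (17.6% of all genes were), and the median ratio was 0.84, 2.75 and 0.80 in replicates 1, 2 and 3. With the replicate block 8 passed the study threshold (2.32% of all genes), without shCtr replicate 3 it was 1 (0.818%), and without shOSGEP replicate 2 it was 0 (0.416%), with a median of 0.60. All adjusted p were 1.00 in the fit without the block.

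The other receptors, kinases, STATs and IRFs had no common direction. Of 17 listed, 14 were tested, 8 had a Log2FC above 0 and 1 passed the study threshold, with a median of 0.19. That gene was Irf5, a factor downstream of the Toll-like receptors, with 4, 8 and 4 counts in shCtr and 10, 75 and 31 in shOSGEP (Log2FC 2.63, SE 0.82, unadjusted p = 0.0119). Without shOSGEP replicate 2 its Log2FC was 1.86 (unadjusted p = 0.0614). With the replicate block 1 gene of the list also passed the threshold on the lower side (0.624% of all genes did), namely Il10rb, a chain of the IL-10 receptor (Log2FC -1.06, unadjusted p = 0.0350, adjusted p = 0.741, edgeR).

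Inhibitors of interferon signalling and the kinases and adaptors upstream of IRF3 and IRF7 gave no call in the fit without the block. Of 13 inhibitors 12 were tested and 4 had a Log2FC above 0, with a median of -0.24, and 6 of the 12 were lower in all 3 same-numbered pairs, as 17.2% of all genes were. Usp18, which displaces JAK1 from IFNAR2 and is itself an interferon target on both lists, was the exception in size, with 26, 124 and 11 counts in shCtr and 49, 1227 and 58 in shOSGEP. Its Log2FC of 2.76 (SE 1.39, unadjusted p = 0.0799) became -0.076 without shOSGEP replicate 2. DESeq2 without the block gave it no p. Usp18 was higher in all 3 same-numbered pairs, and it passed the study threshold with the replicate block (Log2FC 2.13, unadjusted p = 0.00648), without both replicate 2 libraries (1.55, unadjusted p = 0.0422) and with limma-voom (2.42, unadjusted p = 0.00882). Socs2, a suppressor of cytokine signalling, had a Log2FC of 1.04 (unadjusted p = 0.156), and -0.055 without both replicate 2 libraries. All 11 upstream genes were tested and 6 had a Log2FC above 0, with a median of 0.02. Sting1, the adaptor of the cytosolic DNA sensor, had a Log2FC of -0.68 (unadjusted p = 0.211) and Ticam1, the adaptor of Toll-like receptor 3, one of -0.37 (unadjusted p = 0.460). The shCtr values of Sting1 were 64.8, 190 and 74.7 CPM and its shOSGEP values 61.2, 71.0 and 73.5 CPM, so the highest was shCtr replicate 2.

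Messenger RNA of the ligands was not detectable at this depth. Of 21 interferon genes listed, 20 had 0 counts in all 6 libraries, Ifnb1 and the interferon alpha genes among them, and Ifnz had 0 to 3 counts. A floor of 3 counts, which covers counting error only, equals 0.116 to 0.147 CPM in these libraries.

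**Figure D4:**
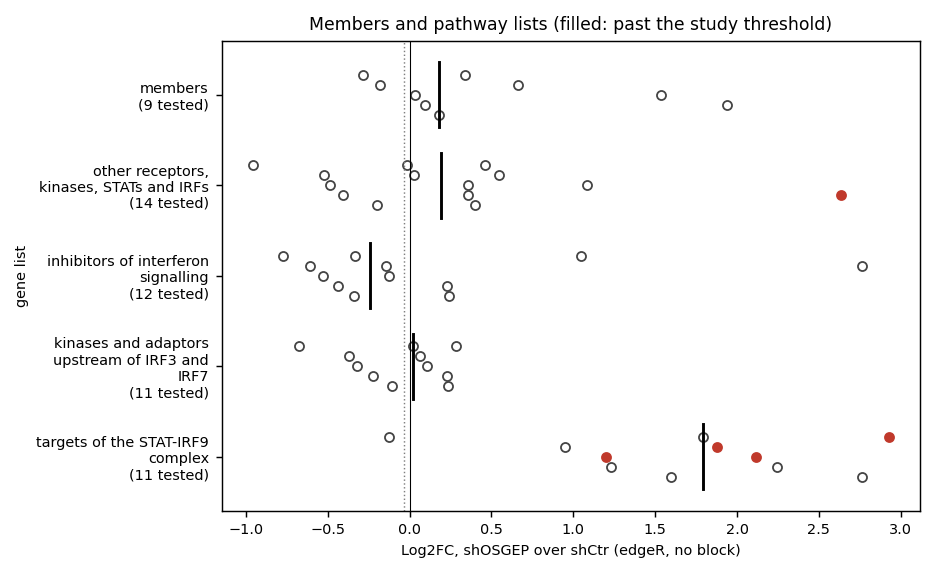
Fitted Log2FC of shOSGEP over shCtr (edgeR without a block) for the members and the tested genes of 4 pathway lists, 1 point per gene, filled where past the study threshold. Black bars are the medians of each list and the dotted line is the median of all genes tested, -0.03. The medians are 0.18 for the members, 0.19, -0.24 and 0.02 for the next 3 lists and 1.79 for the targets.

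The likeness of the members' patterns was described across the libraries. Over the 6 libraries, the Pearson correlation of log2 CPM was 0.96 between Irf7 and Irf9, 0.88 between Stat2 and Irf9 and 0.72 between Stat2 and Irf7. Other pairs of members reached similar or larger values: 0.84 for Irf3 and Irf7, 0.83 for Irf1 and Irf7, 0.81 for Ifnar2 and Stat2, -0.99 for Ifnar1 and Tyk2 and -0.95 for Jak1 and Irf3. The 6 points are 6 libraries, and replicate 2 is the highest of each group for all 3 genes except Stat2 in shCtr, so these values describe the libraries at hand. Measured as deviations from the mean of each replicate number, which hold only 3 separate values, the correlations were 1.00, 0.94 and 0.94. Other pairs of members were as close on this measure, with -0.99 for Jak1 and Tyk2, -0.97 for Ifnar1 and Tyk2 and 0.96 for Ifnar1 and Jak1. Among the 10977 or 10978 other genes with a mean of at least 50 counts, those most like Irf7 in log2 CPM were Tmem8, Apol9a and Ddit4, with correlations of 0.997, 0.996 and 0.996. Those most like Irf9 were Slc46a3, Qpctl and Nudt16 (0.996, 0.993 and 0.989), and those most like Stat2 were Mx2, Eva1a and Zfr2 (0.995, 0.988 and 0.986). Mx2 is an interferon-induced GTPase. By the deviations, Irf9 came second for Irf7, after Bola3 and before Platr16, Bola3, Platr16 and Tnfrsf19 led for Irf9, and Pqlc3, Dusp8 and Ifit3 led for Stat2, each with a correlation of at least 0.999. These are the highest of 10977 or 10978 correlations, each over 3 separate values, and no shared regulation is read from them.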

How the data were processed

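RNA-seq of B16F10 cells (3 shCtr and 3 shOSGEP libraries, grouped and numbered from the labels) was analysed. The authors aligned paired reads to mouse GRCm38 with STAR 2.6.1d and quantified genes with Salmon 1.4.0 (versions from the submitters' processing notes). The deposited values are estimated counts per gene, written as whole numbers, not normalized and treated here as counts. The annotation release is not given in the sources used here. Positions, lengths and GC contents came from GENCODE M21 (GRCm38), which held 99.4% of the identifiers. Columns of no known sample numbered 0.

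Genes were kept by filterByExpr (minimum count 10, minimum total 15), scaled by TMM and tested with edgeR 4.0.16 (R 4.3.3, quasi-likelihood, two-sided, no block), with Benjamini-Hochberg adjustment over all 12669 genes. The SE is the Log2FC divided by the square root of F. In the fit without a block, the p-values measure the spread between libraries of a group, each from its own infection. That spread includes differences between replicate numbers. The biological coefficient of variation, edgeR's common estimate of the spread between libraries, was 0.566 without the block and 0.385 with it. Alternatives were DESeq2 1.42.0, limma 3.58.1 (voom, with sample quality weights), scaling by RLE or the upper quartile, other filters, offsets for GC content and length (natural splines of 5 degrees of freedom each), a replicate block, and leaving out libraries. The block together with voom, with DESeq2 or without replicate 2 was chosen after seeing the data. A floor of 3 counts (0.116 to 0.147 CPM) was used, and intervals and floors cover counting error only, since reads carried no molecular identifiers.

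Replicate numbers were checked by correlating, over genes, the deviations of same-numbered libraries from their group means. The values were 0.811, 0.557 and 0.196 for replicates 1, 2 and 3, each above the limit of 0.1, so the numbers were taken to pair the libraries. The limit does not set pairs apart, since shCtr 3 with shOSGEP 1 (0.491, the highest value between different numbers) and shCtr 2 with shOSGEP 3 (0.138) also passed it. In log2 CPM, shOSGEP replicate 2 correlated with shCtr replicate 2 at 0.870 and with shCtr replicate 3 at 0.891. The names of same-numbered libraries share an ending in the labels, but the labels do not say what a number or an ending marks.

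The members and gene lists were chosen with earlier results of these data known. Genes named beside the members were Osgep, every list gene with an unadjusted p under 0.05, the 2 with the smallest p of each list and the genes most alike in pattern, with Il10rb and Ifngr2 added after their values were seen. A gene that this rule names is not reported here. Promoter sequences came from RefSeq (GRCm38.p6), in which 9 of 9 members were found.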

Additional observations from a re-analysis of the deposited data

How the results depend on the processing

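No member passed the study threshold on the lower side under any alternative. On the higher side, the count of 0 members became 2 with limma-voom (3.35% of all genes) and 1 with no filter (1.97%). Chosen after seeing the data, limma-voom with the replicate block gave 2 (7.46%) and DESeq2 with the replicate block gave 2 (4.07%). The count was 2 with the replicate block (2.32% of all genes) and 3 with the GC and length offsets and the block (4.63%). When libraries were left out it was 0 to 2 (0.416% to 2.09%), the 2 being without shCtr replicate 2 (2.06%). It was 2 with the block without both replicate 2 libraries (4.87%). The count of 0 members at an adjusted p under 0.05 became 2 with limma-voom and the block and 1 with the block without replicate 2. That last fit has 1 residual degree of freedom and called 613 genes, and limma-voom with the block called 1403. For all genes at that threshold the count of 0 became 14 with DESeq2, 3 with limma-voom and 45 with DESeq2 and the block. The block alone changed the call of no member besides Irf7 and Irf9, and the cause of these shifts was not tested.

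For all genes past the study threshold, the count of 256 became 560 with limma-voom, 599 with no filter, 551 with the offsets, 864 with the offsets and the block, 1442 with limma-voom and the block, 819 with DESeq2 and the block, 881 with the block without replicate 2, 67 to 453 when 1 library was left out, 163 without both libraries of replicate 3 and 0 at an adjusted p under 0.1. The list of other receptors, kinases, STATs and IRFs had 1 call, on the higher side. It had 2 with upper-quartile scaling, both higher, and 2 with limma-voom or the block, 1 of them lower. With offsets and block, limma-voom and block, DESeq2 and block or the block without replicate 2 it had 3 (1 of them lower). With at least 10 counts in every library it had 0, and when libraries were left out 0 to 1. Inhibitors went from 0 calls to 1 with limma-voom, no filter, the block, offsets and block, limma-voom and block, DESeq2 and block, or the block without replicate 2, and ranged from 0 to 1 when libraries were left out. Targets of the STAT-IRF9 complex went from 4 calls to 7 with DESeq2 or upper-quartile scaling, 9 with no filter, 8 with the block, 10 with offsets and block, 9 with limma-voom and block, 9 with DESeq2 and block and 10 with the block without replicate 2, and ranged from 0 to 9 when libraries were left out. Of all genes, 1.97% passed on the higher side with DESeq2, upper-quartile scaling or no filter, 3.35% with limma-voom and 2.32% with the block. The share was 4.63% with offsets and block, 7.46% with limma-voom and block and 4.07% with DESeq2 and block. It was 4.87% with the block without replicate 2 and 0.416% to 2.09% when libraries were left out. On the lower side, fits with a call had 0.624% (block) to 3.92% (limma-voom and block). The longest transcript moved 6 of the 9 level ranks. Upper-quartile scaling moved the median Log2FC of all genes from -0.03 to 0.07 and turned the direction of no member.

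Directions turned as follows, and none of the turned values passed the study threshold in its own fit. When 1 library was left out, the Log2FC ranged from -0.017 to 0.38 for Ifnar1, from -0.28 to 0.33 for Jak1, from -0.55 to 0.20 for Tyk2, from -0.16 to 0.62 for Irf1, from -0.58 to 0.66 for Irf3, from -0.40 to 4.12 for Irf7, from -0.076 to 4.42 for Usp18 and from -0.61 to 0.017 for Ticam1. Without both replicate 2 libraries it was -0.16 for Jak1, 0.18 for Tyk2, -0.093 for Irf1, 0.24 for Irf3, -0.055 for Socs2 and 0.031 for Ticam1. With the replicate block in addition it was -0.15 for Jak1, 0.16 for Tyk2, -0.11 for Irf1, 0.23 for Irf3 and -0.056 for Socs2. With limma-voom it was -0.27 for Jak1, 0.054 for Tyk2, -0.046 for Irf1 and 0.37 for Irf3, and with the block in addition -0.075, 0.10, -0.12 and 0.14. Irf3 was 0.30 with offsets and 0.29 with offsets and block. The deepest library, shCtr replicate 2, also had the strongest trend with GC content and length, at 59.2% of the variance of its deviations, against 7.92% to 50.4% in the others. Its TMM factor was the lowest, at 0.690 against 1.04 to 1.14 in the others. After scaling, the floor of 3 counts was therefore highest in that library, at 0.147 CPM. At 3 to 38 counts in shCtr, depth limits Irf7 most.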

Other observations

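Ifnar2, Il10rb, Ifnar1 and Ifngr2 lie in this order on chromosome 16 (GRCm38), between positions 91372783 and 91565623, and each encodes a chain of a class II cytokine receptor. Il10rb, a chain of the IL-10 and type III interferon receptors, had 149, 132 and 113 CPM in shCtr, against 89.4, 33.6 and 80.4 CPM in shOSGEP. All 3 shOSGEP values were below all 3 shCtr values, as in 2.87% of all genes. The Log2FC was -0.95 (SE 0.47, unadjusted p = 0.0737, adjusted p = 1.00, edgeR). Ifngr2, a chain of the interferon gamma receptor, had 105, 93.4 and 94.5 CPM in shCtr, against 81.7, 138 and 79.2 CPM in shOSGEP, and its Log2FC was 0.03 (SE 0.40, unadjusted p = 0.947). The 4 neighbours thus had Log2FC values of 0.10, -0.95, 0.18 and 0.03 in order of position, and none passed the study threshold in that fit. With the replicate block Il10rb did (Log2FC -1.06, SE 0.38, unadjusted p = 0.0350, adjusted p = 0.741), as it did with limma-voom (-0.63, unadjusted p = 0.0479) and with GC and length offsets and the block (-1.05, unadjusted p = 0.0297). These genes were picked after their values were seen.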
